A study of Mus musculus with 24 samples.

Results

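Interferon-stimulated genes were followed in all 24 mouse RNA-seq libraries of a study of Srcap mutation in blood formation. The set holds 39 genes, chosen by name as members of the interferon response, of the 55414 genes listed. All 39 were matched to a row of the count tables, all 39 passed the filter on low counts in every fit, and each had at least 1 count in every library.

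Interferons are secreted proteins made by cells that sense foreign or misplaced nucleic acid. Type I interferon binds a receptor whose Janus kinases phosphorylate Stat2, which acts with Irf9 in a complex that binds the interferon-stimulated response element in promoters. Interferon gamma acts through the gamma-activated site and induces Irf1. The induced genes encode antiviral enzymes, nucleic acid sensors, ubiquitin-like modifiers and GTPases, and interferon is known to drive dormant hematopoietic stem cells into division.

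The libraries hold poly(A) RNA of sorted bone marrow cells of C57BL6/J mice, with 2 libraries in each of 12 groups, each condition having Srcap mutant and WT mice. Srcap is the catalytic subunit of a chromatin remodeller that exchanges H2A for H2A.Z. Of the allele the file headers give only "het" (untreated, doxorubicin and 20-week HSPCs) or "Mut" (2-week libraries). Hematopoietic stem and progenitor cells (HSPCs, called LSK in the headers) came from mice given intraperitoneal doxorubicin, a DNA-damaging drug, and collected 12 hours later, from untreated mice (titled germline), from 2 weeks after transplantation, and from 20 weeks after competitive transplantation, where the series text names CD45.2+ donor cells. B cells and cells labelled T cells came from 2 weeks after transplantation. The labels used here give no dose, age or pooling of animals.

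Total counts per library ran from 26.4 to 78.4 (in units of 1e6). Levels are counts per 1e6 counts (CPM), and with 2 libraries per group the p-values measure only the spread between these libraries. Srcap itself had 2.83 to 13.7 CPM in mutant HSPCs and 6.11 to 14.4 CPM in WT HSPCs, and overlapped in B cells (16.2 and 20.0 CPM in mutants against 20.3 and 13.8 CPM in WT) and in libraries labelled T cells (6.52 and 5.70 CPM against 6.09 and 7.46 CPM), so its level does not check the genotype labels. The libraries labelled T cells went against their label. Their 8 T cell markers summed to 15.3 to 22.9 CPM, below every HSPC library, while their 9 neutrophil markers summed to 125975 to 147631 CPM. Cd3e, part of the CD3 complex, had 0.0883 to 1.56 CPM there. Cd3d, another part of it, went the other way, with 304 to 502 counts against 9 to 124 counts in 2-week HSPCs. The libraries are called T-labelled here. Untreated WT replicate 1 held 22139 CPM of neutrophil markers, against 138 to 381 CPM in the other untreated libraries. The 2-week libraries expressed Xist and the other HSPC libraries Ddx3y, so that 2-week samples were female and the rest male, and the headers place untreated with doxorubicin, 2-week, and 20-week files in 3 directories. Sex (for 2 weeks) and directory (for 2 and 20 weeks) cannot be told apart from time after transplantation.

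Promoter sequence was examined first, because the shared element is what defines the response at the DNA level. Of the 39 genes, 29 matched a RefSeq promoter window (GRCm38.p6, 250 bases before to 50 after the start). The element was searched on both strands as GAAANNGAAA, whose reverse complement is TTTCNNTTTC. It was present in 17 of the 29 genes (58.6%), against 3.99% of 27025 genes with a window of the same length. The gamma-activated site TTCNNNGAA, which reads the same on both strands, was present in 9 of 29 (31%), against 9.55% of all genes, and 5 members held both. A match is a description of letters and not a measured binding site. The 6 windows shown belong to genes that hold the element and carry large differences in these data. They are Isg15, a ubiquitin-like modifier, and Oas3, an oligoadenylate synthetase, both lower in mutant B cells, then Ifit3, Rsad2 and Ifitm3, antiviral proteins with large differences between cell labels, and Gbp2, a guanylate-binding GTPase that differed with time. Each is given 5′ to 3′ on the strand of its gene, with every base of a match in capitals.
Isg15 (chr4:156200769-156201068, minus strand): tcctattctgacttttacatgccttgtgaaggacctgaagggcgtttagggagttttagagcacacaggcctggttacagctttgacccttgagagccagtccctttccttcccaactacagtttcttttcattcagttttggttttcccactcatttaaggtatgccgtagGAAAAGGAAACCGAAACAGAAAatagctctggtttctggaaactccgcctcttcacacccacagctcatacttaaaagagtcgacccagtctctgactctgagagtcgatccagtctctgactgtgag
Oas3 (chr5:120777610-120777909, minus strand): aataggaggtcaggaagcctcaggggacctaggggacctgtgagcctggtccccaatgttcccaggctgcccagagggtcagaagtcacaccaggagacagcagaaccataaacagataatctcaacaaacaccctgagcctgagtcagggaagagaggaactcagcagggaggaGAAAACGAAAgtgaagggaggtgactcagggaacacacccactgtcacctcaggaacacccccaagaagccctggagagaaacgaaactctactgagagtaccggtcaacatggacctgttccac
Ifit3 (chr19:34583279-34583578, plus strand): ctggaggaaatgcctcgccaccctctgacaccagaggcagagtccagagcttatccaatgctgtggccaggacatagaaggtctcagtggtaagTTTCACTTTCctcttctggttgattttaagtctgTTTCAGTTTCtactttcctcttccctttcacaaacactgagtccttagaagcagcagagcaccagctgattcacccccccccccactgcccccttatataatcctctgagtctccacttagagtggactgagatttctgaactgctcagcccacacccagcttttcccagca
Rsad2 (chr12:26456403-26456702, minus strand): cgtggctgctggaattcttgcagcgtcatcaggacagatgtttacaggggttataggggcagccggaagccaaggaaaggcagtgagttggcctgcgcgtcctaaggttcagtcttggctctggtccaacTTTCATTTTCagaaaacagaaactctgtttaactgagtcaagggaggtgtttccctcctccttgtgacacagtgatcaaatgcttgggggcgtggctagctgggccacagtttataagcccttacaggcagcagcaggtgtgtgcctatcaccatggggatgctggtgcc
Ifitm3 (chr7:141010695-141010994, minus strand): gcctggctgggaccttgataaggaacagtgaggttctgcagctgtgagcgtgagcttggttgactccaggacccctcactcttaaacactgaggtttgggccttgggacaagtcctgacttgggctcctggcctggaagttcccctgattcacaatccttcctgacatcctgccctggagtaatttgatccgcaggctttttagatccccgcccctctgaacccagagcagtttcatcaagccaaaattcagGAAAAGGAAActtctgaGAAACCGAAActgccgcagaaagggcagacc
Gbp2 (chr3:142620413-142620712, plus strand): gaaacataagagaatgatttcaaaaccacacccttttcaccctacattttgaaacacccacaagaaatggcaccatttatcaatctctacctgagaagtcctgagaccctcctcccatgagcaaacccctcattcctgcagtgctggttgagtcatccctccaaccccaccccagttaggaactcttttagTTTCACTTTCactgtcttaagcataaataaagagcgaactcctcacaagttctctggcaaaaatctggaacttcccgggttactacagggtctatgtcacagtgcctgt
In Isg15 the first of 3 matches, some of which overlap, began 78 bases before the start. The single matches of Oas3, Rsad2 and Gbp2 began 75, 120 and 59 bases before it, and the first of 2 in Ifit3 began 156 bases before it. In Ifitm3 both matches lay in the transcribed part of the window. The window of Irf7, the third gene lower in mutant B cells, held no GAAANNGAAA.

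Levels were compared between genes per kilobase of exon model. In untreated HSPCs Ifitm3, an interferon-induced membrane protein that blocks virus entry, stood highest at a mean of 247.5 CPM per kb over 4 libraries. Ifi27 followed at 61.2 CPM per kb and Trim30a at 39.9 CPM per kb. The lowest were Mx2 at 1.9, Ifit3 at 3.1 and Mx1 at 3.7 CPM per kb. The Mx genes encode antiviral dynamin-like GTPases that are not functional in most inbred mouse strains. In T-labelled libraries Ifitm3 was again highest at 783.8 CPM per kb, while in B cells Isg15 led at 102.2 CPM per kb. Reads shared between near-identical copies were not counted. Ifit3, Oas1a, Trim30a, Gbp2, Gbp3, Gbp7, Igtp, Irgm1 and Iigp1 belong to families with related members, so their levels carry an uncertainty. How far it differs between these genes was not measured.

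The summed CPM of the 39 genes, not corrected for length, was 3500 and 3905 CPM in mutant T-labelled libraries against 3461 and 4772 CPM in WT ones. B cells held 2467 and 2456 CPM in mutants against 2516 and 2956 CPM in WT. Among HSPCs the sum was 1891 and 2483 CPM in doxorubicin mutants against 2102 and 2070 CPM in WT, while untreated mutants held 2518 and 2278 CPM against 2615 and 2302 CPM in WT. At 2 weeks it was 1476 and 1605 CPM in mutants against 2147 and 1587 CPM in WT. At 20 weeks it was 1968 and 1774 CPM in mutants against 1954 and 1628 CPM in WT. The genotypes overlapped in every label and condition except B cells, where both mutant sums lay below both WT sums. Single libraries carried much of the spread: 2-week WT HSPC replicate 1 was the highest of its 4 libraries for 32 of 39 genes, T-labelled WT replicate 2 for 30, doxorubicin mutant replicate 2 for 27 and WT B cell replicate 2 for 26. In bulk samples fewer cells of a type and less RNA per cell cannot be told apart.

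**Figure D1:**
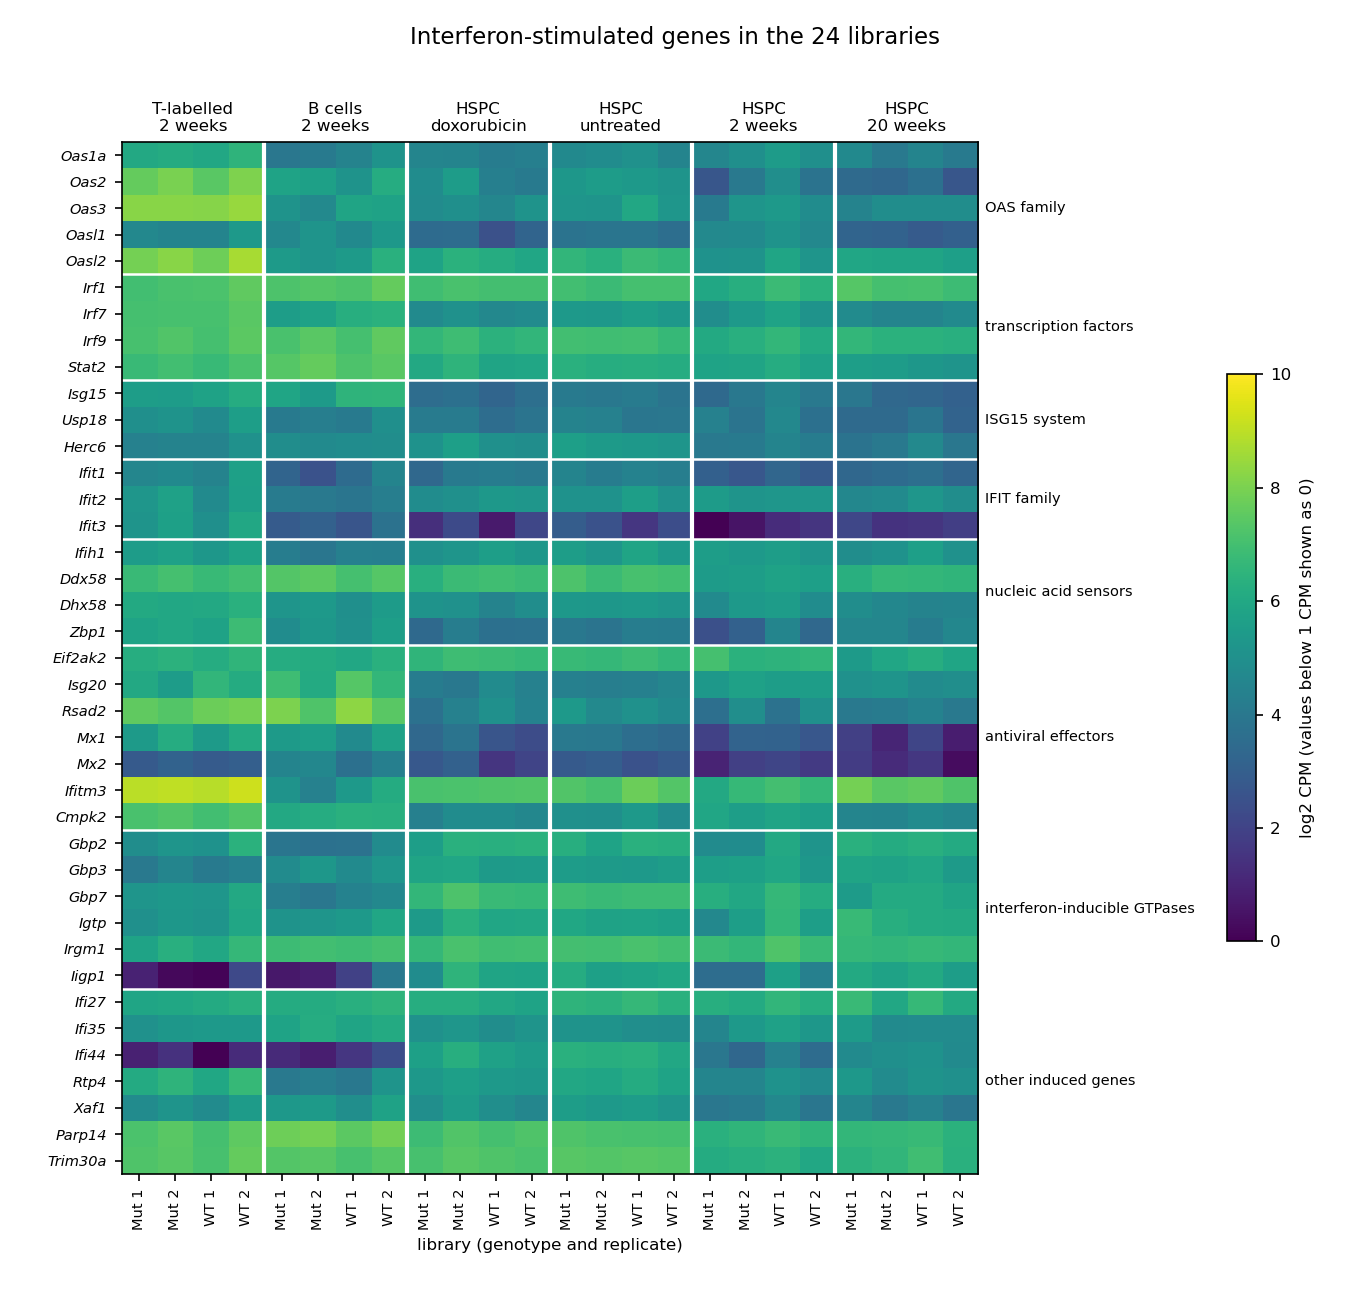
Level of the 39 interferon-stimulated genes (rows, by role) in the 24 libraries (columns, by cell label, condition and genotype), as log2 CPM. Oas2, Oas3, Oasl2 and Ifitm3 are brightest in the 4 T-labelled libraries, and Ifi44 and Iigp1 are dark in T-labelled and B cell libraries.

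The genotype comparison asks whether Srcap mutation altered the response in each cell label and condition. In HSPCs no member passed the test in any condition. The fits used edgeR's quasi-likelihood test with Benjamini-Hochberg adjustment over all genes and a threshold of 0.05. The count was 0 of 39 in untreated HSPCs (0% of all genes called), 0 after doxorubicin (0.0154% of all genes), 0 at 2 weeks (0.138%), 0 at 20 weeks (0.00512%) and 0 in the mean over the 4 conditions (0.133%). At an unadjusted p under 0.05 there were 0, 5, 9, 2 and 3 members in that order, against 4.82%, 9.79%, 8.76%, 3.8% and 9.88% of all genes. DESeq2 called 1 member at 2 weeks, Zbp1, and none in the other comparisons of genotype in HSPCs.

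At 2 weeks the members leaned lower in mutants, with 32 of 39 fold changes negative and a median log2 fold change of -0.26, where 45.9% of all genes were positive and their median was -0.02. Zbp1, a sensor of Z-form nucleic acid, had 5.38 and 8.53 CPM in mutant HSPCs, against 23.4 and 10.5 CPM in WT HSPCs, a log2 fold change of -1.25 ± 0.33 (SE) with an edgeR adjusted p of 0.196. Iigp1, a GTPase that attacks pathogen vacuoles, had 12.0 and 11.8 CPM against 51.7 and 20.4 CPM in WT. Gbp2 had 28.4 and 29.5 CPM in mutants against 65.2 and 35.7 CPM in WT. Irf1, the transcription factor induced by interferon gamma, had 61.6 and 78.0 CPM in mutants against 112 and 82.9 CPM in WT. These 4 were named for the smallest p in this comparison, so the separation of their libraries follows from that choice. WT replicate 1 was the highest library for each of them. Without WT replicate 1 the log2 fold changes were -0.61 for Zbp1, -0.31 for Gbp2, -0.26 for Irf1 and -0.78 for Iigp1, and the median over members was -0.07. Zbp1 was called by edgeR without WT replicate 2 (-1.70, adjusted p = 0.0420). The other 3 named factors had log2 fold changes of -0.33 ± 0.21 for Irf7, -0.14 ± 0.16 for Irf9 and -0.13 ± 0.17 for Stat2, with edgeR adjusted p from 0.685 to 0.881. Mutant replicate 1 also had the lowest summed HSPC markers of the 4 libraries (3386 CPM, against 6711 CPM in mutant replicate 2 and 5718 and 5467 CPM in WT) and the highest B cell markers (991 CPM, against 631 CPM in mutant replicate 2 and 343 and 513 CPM in WT). The part of these differences in the result was not tested.

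In untreated HSPCs the smallest p belonged to Ifitm3, with 157 and 136 CPM in mutants against 217 and 161 CPM in WT. Oas3 had 36.7 and 35.7 CPM in mutants against 64.0 and 37.9 CPM in WT, where the higher value came from WT replicate 1, the library rich in neutrophil RNA. Usp18, the protease that removes Isg15 and damps the interferon receptor, had 21.9 and 20.8 CPM in mutants against 15.4 and 15.5 CPM in WT, and Ifit2, an RNA-binding antiviral protein, 34.5 and 34.1 CPM against 49.0 and 33.4 CPM. All adjusted p in this comparison were 1 in edgeR. The factors lay close: Irf7 had 41.6 and 40.4 CPM in mutants against 49.2 and 40.0 CPM in WT, and Stat2 80.7 and 74.5 CPM against 76.8 and 73.0 CPM. Irf1 had 126 and 114 CPM against 132 and 132 CPM, and Irf9 126 and 123 CPM against 124 and 105 CPM.

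After doxorubicin Mx1 had 10.3 and 14.3 CPM in mutant HSPCs against 6.14 and 4.94 CPM in WT, and Mx2 6.67 and 8.61 CPM against 2.92 and 4.20 CPM. The log2 fold changes were 1.09 ± 0.40 and 1.04 ± 0.43, with edgeR adjusted p of 0.38 and 0.43. Isg20, an RNA exonuclease, had 18.3 and 16.1 CPM in mutants against 28.2 and 21.2 CPM in WT, and Ifit2 29.4 and 32.4 CPM against 40.5 and 38.2 CPM. These 4 were named for the smallest p in this comparison, and none passed the adjusted threshold. Irf1, Irf7, Irf9 and Stat2 had log2 fold changes of -0.03, 0.13, 0.22 and 0.35 with SE of 0.15 to 0.21.

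At 20 weeks Herc6, the mouse ligase that attaches Isg15 to proteins, had 13.9 and 16.4 CPM in mutants against 26.2 and 15.5 CPM in WT, and the groups overlapped. Stat2 had 49.2 and 46.6 CPM in mutants against 39.6 and 36.1 CPM in WT, without overlap, at a log2 fold change of 0.31 ± 0.16. Ifit2 had 24.5 and 27.8 CPM against 38.2 and 29.8 CPM, and Ifih1, the RNA sensor Mda5, 29.8 and 34.3 CPM against 49.8 and 33.6 CPM. Adjusted p were 1 in edgeR for all 39 genes. Over the 4 conditions together the smallest p were those of Gbp2 (log2 fold change -0.35 ± 0.12), Ifit2 (-0.24 ± 0.09), Ifih1 (-0.23 ± 0.10) and Zbp1 (-0.33 ± 0.16), with edgeR adjusted p of 0.305 to 0.52. The median over members was -0.08.

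**Figure D2:**
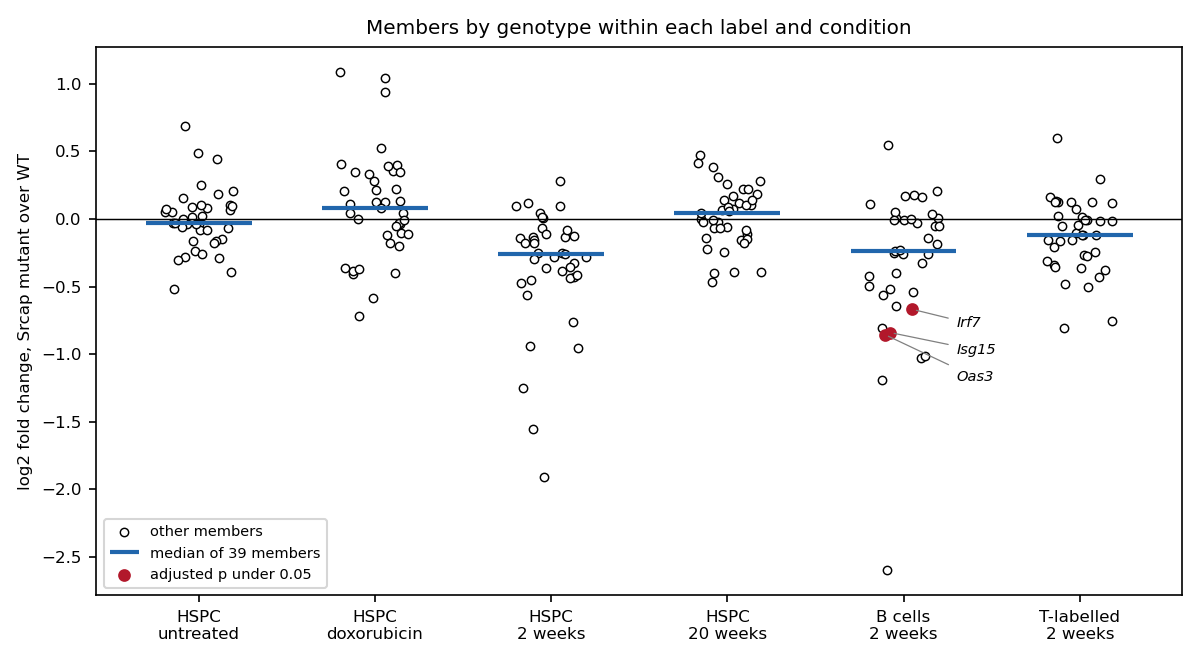
Log2 fold change of each of the 39 genes, Srcap mutant over WT, in 6 cell labels and conditions, with red points for an edgeR adjusted p under 0.05 and a bar at the median. The only red points are Irf7, Isg15 and Oas3 in B cells, and the medians are lowest at 2 weeks in HSPCs (-0.26) and in B cells (-0.24).

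In B cells 3 members fell in Srcap mutants and none rose, where 0.583% of all genes were called lower and 0.0572% higher. Oas3, which makes the second messenger that activates RNase L, had 35.3 and 26.3 CPM in mutant B cells, against 57.4 and 53.6 CPM in WT B cells. Irf7, the factor that drives type I interferon genes and amplifies the response, had 47.3 and 53.7 CPM in mutants against 77.3 and 83.1 CPM in WT. Isg15 had 59.2 and 44.0 CPM in mutants against 91.9 and 92.3 CPM in WT. For all 3 genes both mutant libraries lay below both WT libraries. The genes lie on the minus strand in GRCm39, Oas3 at chr5:120891163-120915726, Irf7 at chr7:140842619-140846394 and Isg15 at chr4:156283912-156285253, and the counts cover their exons. The log2 fold changes were -0.85 ± 0.14 for Oas3, -0.67 ± 0.13 for Irf7 and -0.84 ± 0.16 for Isg15, with edgeR adjusted p of 0.0161, 0.0345 and 0.0347. These calls are sensitive to single libraries: Oas3 lost its call without mutant replicate 2 (adjusted p = 0.0736), Irf7 without WT replicate 2 (0.120) or mutant replicate 1 (0.0510), and Isg15 without WT replicate 1 (0.0979), WT replicate 2 (0.156) or mutant replicate 2 (0.165). When B cells were fitted without the T-labelled libraries none of the 3 passed (adjusted p = 0.189 for each), and DESeq2 called 6 members. The share of all genes called by DESeq2 is not given here.

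The other factors did not follow Irf7. Irf9 had 142 and 174 CPM in mutant B cells against 134 and 188 CPM in WT, Stat2 164 and 199.5 CPM against 148 and 175 CPM, and Irf1 147 and 159.6 CPM against 149 and 199 CPM, with log2 fold changes of -0.03 ± 0.20, 0.17 ± 0.15 and -0.19 ± 0.16. Over the 39 genes 28 fold changes were negative and the median was -0.24, against -0.01 over all genes. The range ran from -2.60 to 0.55, and Iigp1, named after its value was seen, formed the low end with 1.58 and 1.78 CPM in mutants against 3.78 and 16.5 CPM in WT. The median depended on WT replicate 2 and was 0.06 without it. B cell libraries carried RNA of other cells. Sums of neutrophil, erythroid, HSPC, B cell and plasma cell markers overlapped between genotypes, and those of the other marker lists did not. The 9 neutrophil markers summed to 8096 and 3385 CPM in mutant B cells against 7837 and 12247 CPM in WT. The 5 erythroid markers summed to 10709 and 5610 CPM against 15077 and 8479 CPM, and the 7 monocyte and macrophage markers to 238 and 156 CPM against 320 and 361 CPM, with 3 of those 7 called lower. Plasmacytoid dendritic cell markers summed to 617 and 763 CPM in mutants against 809 and 807 CPM in WT. Natural killer cell markers summed to 44.7 and 49.0 CPM against 69.9 and 56.0 CPM, and T cell markers to 59.7 and 63.8 CPM against 88.7 and 85.1 CPM. Oas3 had 293 to 353 CPM in T-labelled libraries, where the neutrophil sum was 125975 CPM or more. The part of these cells in the 3 calls was not tested.

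**Figure D3:**
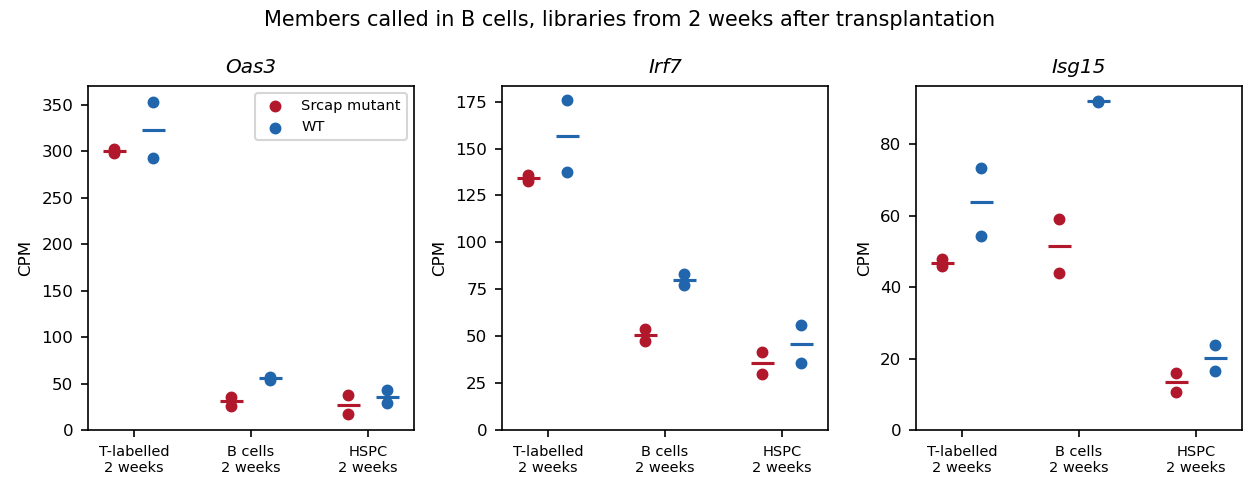
Level in CPM of Oas3, Irf7 and Isg15 in each 2-week library, with Srcap mutant (red) left of WT (blue) and a bar at the mean of 2 libraries. In B cells both mutant points lie below both WT points for each gene, while Oas3 and Irf7 are highest in T-labelled libraries.

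In T-labelled libraries 0 of 39 members were called (0.0114% of all genes), with 1 passing an unadjusted p of 0.05, while DESeq2 called 0. The gene at the unadjusted p was Isg15, with 47.9 and 45.9 CPM in mutants against 54.4 and 73.5 CPM in WT and a log2 fold change of -0.38 ± 0.16 (edgeR adjusted p = 0.835). Oas3 had 302 and 297 CPM in mutants against 293 and 353 CPM in WT, and overlapped. Irf7 had 133 and 136 CPM against 137 and 176 CPM, Irf1 126 and 139 CPM against 143 and 190.2 CPM, Irf9 137 and 157 CPM against 133 and 178 CPM, and Stat2 110.1 and 125 CPM against 108 and 139 CPM. Ifi27, a mitochondrial protein, had 59.5 and 62.6 CPM in mutants against 68.3 and 79.1 CPM in WT, and Gbp7 37.3 and 40.1 CPM against 38.3 and 65.9 CPM. The difference between the genotype effects in B cells and T-labelled libraries was not tested.

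Doxorubicin asks whether DNA damage turned the genes on within 12 hours. No member was called in edgeR over both genotypes, 0 of 39 (0.0154% of all genes), and 31 of 39 fold changes were negative with a median of -0.25, against 0.000864 over all genes. An unadjusted p under 0.05 was reached by 14 members, against 5.96% of all genes. Rtp4, a chaperone that binds viral RNA, had 40.0, 50.3, 42.4 and 39.4 CPM after doxorubicin, against 64.6, 58.1, 70.9 and 55.7 CPM in untreated HSPCs (mutant replicates 1 and 2, then WT replicates 1 and 2). Irf7 had 27.9, 33.1, 25.6 and 28 CPM against 41.6, 40.4, 49.2 and 40.0 CPM. All 4 treated libraries lay below all 4 untreated ones for both genes. Both were named for the smallest p in this comparison, so the separation of their libraries follows from that choice. Their log2 fold changes were -0.52 ± 0.13 and -0.56 ± 0.15, with edgeR adjusted p of 0.294 and 0.483. Oasl1, which inhibits Irf7 translation, had 5.65 to 11.5 CPM against 12.1 to 14.8 CPM, and Oasl2, an Oas-like protein, 56.1 to 84.5 CPM against 80.9 to 113 CPM. DESeq2 called 1 member lower, Rtp4 at -0.53, and edgeR called Rtp4 without untreated WT replicate 2 (adjusted p = 0.0490). Irf1 had 122 to 141 CPM against 114 to 132 CPM, a log2 fold change of 0.07 ± 0.11. Irf9 and Stat2 stood at -0.25 ± 0.11 and -0.15 ± 0.12. The medians by role were negative for 7 of the 8 role groups, from -0.51 in the Oas family to -0.20 in the factors, and 0.02 in the GTPases.

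HSPCs taken 2 weeks after transplantation held less of this RNA than untreated HSPCs. Of the 39 genes 19 fell and 3 rose, where 24.9% of all genes were called lower and 21.2% higher, and the median was -0.47 against -0.14 over all genes. Ifi44, a cytoplasmic protein induced by type I interferon, had 15.5, 10.1, 21.2 and 11.5 CPM at 2 weeks (mutant replicates 1 and 2, then WT), against 80.4, 76.4, 82.2 and 63.5 CPM in untreated HSPCs. Its log2 fold change was -2.30 ± 0.20 (edgeR adjusted p = 1.33e-07). Ddx58, the RNA sensor Rig-I, had 44.5, 47.7, 54.6 and 50.2 CPM against 147, 113, 135 and 126 CPM, a log2 fold change of -1.32 ± 0.13. Neither gene overlapped between the groups. Ifit1, which binds RNA without ribose methylation on its cap, had 6.64 to 9.84 CPM against 18.3 to 22.5 CPM, and Oasl2 34.3 to 59.2 CPM against 80.9 to 113 CPM. Oas2, an oligoadenylate synthetase, had 6.33 to 30.5 CPM against 36.0 to 46.1 CPM, and Xaf1, a partner of an apoptosis inhibitor, 15.4 to 25.3 CPM against 36.8 to 47.0 CPM. These 4 fell by 1.27, 1.16, 1.29 and 1.16 on the log2 scale, again without overlap. Iigp1 fell by 1.47 ± 0.37 (11.8 to 51.7 against 51.1 to 73.3 CPM) and overlapped through WT replicate 1 at 2 weeks. Ifit3 fell by 1.85 ± 0.59 (0.0603 to 2.90 against 3.02 to 7.63 CPM), a call lost when untreated WT replicate 2, untreated mutant replicate 1, or either 2-week WT library was left out (adjusted p = 0.0565 to 0.0790).

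Against this direction Isg20 had 40.4, 52.8, 47.1 and 47.4 CPM at 2 weeks against 20.7, 19.6, 20.4 and 24 CPM in untreated HSPCs, a log2 fold change of 1.23 ± 0.14 (edgeR adjusted p = 6.75e-07). Oasl1 had 25.4 to 35.2 CPM against 12.1 to 14.8 CPM and rose by 1.12 ± 0.18. Cmpk2, a mitochondrial nucleotide kinase that neighbours Rsad2 in the genome, had 48.7 to 60.9 CPM against 28.5 to 42.1 CPM and rose by 0.77 ± 0.14. Among the factors Irf1 and Irf9 each fell by 0.52 ± 0.11. Stat2 stood at -0.28 ± 0.12 (adjusted p = 0.0569) and Irf7 at -0.01 ± 0.15, with 29.6 to 55.7 CPM against 40.0 to 49.2 CPM. By role, 5 of 7 other induced genes, 3 of 6 GTPases and 2 of 3 Ifit genes fell, and 1 of 4 nucleic acid sensors. Without untreated WT replicate 1 the counts were 19 lower and 4 higher. Other cells moved with time as well. HSPC markers summed to 3386 to 6711 CPM at 2 weeks against 2351 to 2730 CPM in untreated HSPCs, and the 5 erythroid markers to 149 to 841 CPM against 11.5 to 203 CPM, where the ranges overlap. Neutrophil markers summed to 1287 to 3928 CPM, against 22139 CPM in untreated WT replicate 1 and 138 to 381 CPM in the other untreated libraries. Monocyte and macrophage markers summed to 368 to 709 CPM, against 517 CPM in that replicate and 117 to 147 CPM in the others. Markers of 3 other cell types were lower without overlap: plasma cell markers summed to 554 to 1157 CPM against 3441 to 6814 CPM, plasmacytoid dendritic cell markers to 320 to 459 CPM against 513 to 594 CPM, and T cell markers to 53.9 to 65.2 CPM against 82.8 to 132 CPM. The part of these cells in the result was not tested.

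At 20 weeks 13 members were lower and 6 higher than in untreated HSPCs, where 10.6% of all genes were lower and 13.1% higher, with a median of -0.26 against 0.02 over all genes. The split depends on scaling. Immunoglobulin genes took 16.9% to 26.7% of the counts at 20 weeks and 3.66% to 6.22% in untreated HSPCs, and their part in that dependence was not tested. With library totals in place of TMM factors 23 members were lower and 1 higher, and the median over all genes moved to -0.33. The share of all genes called with library totals is not given here, so these counts stand without that baseline. Without untreated WT replicate 1 the counts were 10 lower and 5 higher. The 4 plasma cell markers summed to 11036 to 16697 CPM at 20 weeks against 3441 to 6814 CPM in untreated HSPCs. HSPC markers summed to 1639 to 1921 CPM against 2351 to 2730 CPM, and plasmacytoid dendritic cell markers to 356 to 405 CPM against 513 to 594 CPM. The part of these cells in the result was not tested. Mx1 had 3.76, 2.05, 4.28 and 1.76 CPM at 20 weeks, against 16.6, 15.9, 12.2 and 10.6 CPM in untreated HSPCs, a log2 fold change of -1.87 ± 0.29 (edgeR adjusted p = 0.000209). Oas2 had 11, 10.04, 12.8 and 6.44 CPM against 39.6, 46.1, 42.4 and 36.0 CPM, a log2 fold change of -1.68 ± 0.31. All 20-week libraries lay below all untreated ones for both genes. Mx2 (1.25 to 3.43 against 5.74 to 7.90 CPM) fell by 1.13, Ifi44 (27.2 to 34.3 against 63.5 to 82.2 CPM) by 0.96, Herc6 (13.9 to 26.2 against 37.4 to 50.2 CPM) by 0.92 and Xaf1 (15.1 to 23.7 against 36.8 to 47.0 CPM) by 0.83. Gbp7 fell by 0.58 and Ifit1 by 0.55.

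Isg20 rose by 0.96 ± 0.13 at 20 weeks, with 33.0, 36.2, 28.7 and 30.7 CPM against 20.7, 19.6, 20.4 and 24 CPM in untreated HSPCs, and was the single member still called higher with library totals. Igtp, an immunity-related GTPase, had 67.8 to 108 CPM against 51.8 to 61.7 CPM and rose by 0.87. Zbp1 had 18.6 to 24.6 CPM against 14.4 to 18.7 CPM, overlapped in CPM and rose by 0.81. Gbp3 (43.2 to 59.8 against 41.0 to 46.8 CPM), Ifitm3 (151 to 241 against 136 to 217 CPM) and Irf1 (116 to 166 against 114 to 132 CPM) also overlapped in CPM and rose by 0.62, 0.52 and 0.48. These 5 calls were lost with library totals (adjusted p = 0.131 to 0.457). Stat2 fell by 0.48 ± 0.12, with 36.1 to 49.2 CPM against 73.0 to 80.7 CPM. Irf7 stood at -0.39 ± 0.15 (adjusted p = 0.0702) and Irf9 at -0.12 ± 0.11. Leaving out any 1 of the 8 libraries ended the call of Igtp (adjusted p = 0.0610 to 0.145), and 7 of the 8 that of Ifit1 (0.0556 to 0.151), all but 20-week mutant replicate 2. Zbp1 was lost without untreated mutant replicate 2 (0.0657) or 20-week WT replicate 2 (0.109), Ifitm3 without untreated WT replicate 2 (0.0602) or mutant replicate 2 (0.0546), and Mx2 without 20-week WT replicate 2 (0.0543).

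**Figure D4:**
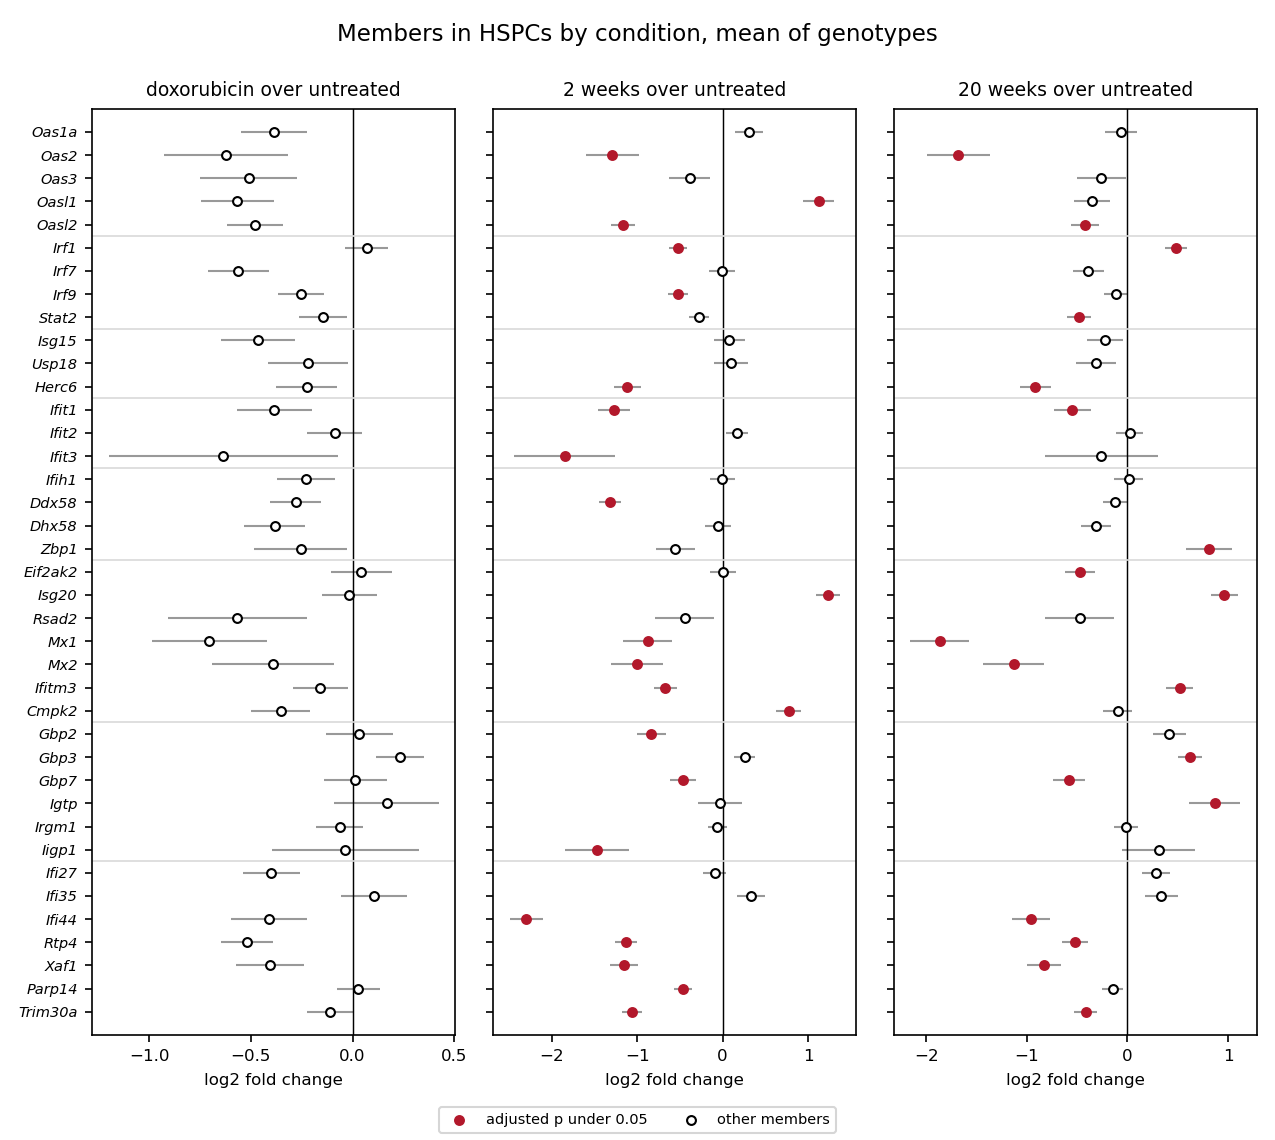
Log2 fold change with SE of each of the 39 genes in HSPCs after doxorubicin, at 2 weeks and at 20 weeks after transplantation, each over untreated HSPCs and averaged over genotypes. Red points have an edgeR adjusted p under 0.05, of which there are none after doxorubicin, 22 at 2 weeks and 19 at 20 weeks.

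The 2-week and 20-week comparisons share the untreated libraries, so the times were also set against each other directly. At 20 weeks 17 members were higher and 4 lower than at 2 weeks, where 23% of all genes were higher and 19% lower, with a median of 0.13 against 0.07 over all genes. With library totals the split was 10 higher and 13 lower, and the median over all genes was -0.19. Ddx58 had 79.8, 102, 99.3 and 92.9 CPM at 20 weeks against 44.5, 47.7, 54.6 and 50.2 CPM at 2 weeks, a log2 fold change of 1.2 ± 0.13 (edgeR adjusted p = 5.94e-07). Gbp2 had 69.2 to 81.3 CPM against 28.4 to 65.2 CPM and rose by 1.25 ± 0.17. Ifi44 had 27.2 to 34.3 CPM against 10.1 to 21.2 CPM and rose by 1.34 ± 0.19. Ifitm3 had 151 to 241 CPM against 65.6 to 128 CPM, and Irf1 116 to 166 CPM against 61.6 to 112 CPM. Neither gene overlapped between the times, and they rose by 1.19 and 1.0. Iigp1 and Zbp1, which overlapped through 2-week WT replicate 1, rose by 1.78 ± 0.37 and 1.37 ± 0.23.

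Oasl1 went the other way, with 9.38, 8.80, 7.33 and 8.33 CPM at 20 weeks against 25.9, 27.8, 35.2 and 25.4 CPM at 2 weeks, a log2 fold change of -1.48 ± 0.18. Cmpk2 had 22.6 to 28 CPM against 48.7 to 60.9 CPM and fell by 0.87 ± 0.14. Eif2ak2, the kinase that halts translation on double-stranded RNA, had 43.1 to 75.6 CPM against 84.5 to 132 CPM and fell by 0.48 ± 0.15. Mx1 had 1.76 to 4.28 CPM against 3.84 to 8.99 CPM and fell by 0.99 ± 0.29. Irf9 rose by 0.41 ± 0.11, and Irf7 (-0.38 ± 0.15, adjusted p = 0.0502) and Stat2 (-0.20 ± 0.12) did not pass. The call of Ifit3 (1.59 ± 0.59) was lost without any 1 of 6 libraries, all 4 at 20 weeks and both WT ones at 2 weeks (adjusted p = 0.0683 to 0.139). That of Eif2ak2 was lost without 20-week WT replicate 2, 20-week mutant replicate 1, 2-week WT replicate 2 or 2-week mutant replicate 1 (0.0530 to 0.0986), and that of Mx1 without 2-week mutant replicate 2 (0.0670). HSPC markers summed to 1639 to 1921 CPM at 20 weeks against 3386 to 6711 CPM at 2 weeks, and neutrophil markers to 50.5 to 130 CPM against 1287 to 3928 CPM. Plasma cell markers summed to 11036 to 16697 CPM at 20 weeks against 554 to 1157 CPM at 2 weeks, and B cell markers to 1124 to 1359 CPM against 343 to 991 CPM. The part of these differences was not tested.

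Whether the mutation changed any of these responses was tested as a difference of effects, mutant minus WT. No member was called for doxorubicin (0% of all genes called), for 2 weeks (0%) or for 20 weeks (0%), all against untreated HSPCs, and 0, 1 and 2 members had an unadjusted p under 0.05 in edgeR. DESeq2 also called no member in the 3 tests. The smallest p in each were those of Isg20 after doxorubicin (-0.42 ± 0.27 on the log2 scale), Ifit3 at 2 weeks (-2.60 ± 1.17) and Ifitm3 at 20 weeks (0.65 ± 0.27). At 2 weeks 31 of 39 differences were negative, with a median of -0.23 against -0.05 over all genes. Without 2-week mutant replicate 2 the difference for Ifit3 was called (-6.05, edgeR adjusted p = 0.00570), on the 0.0603 CPM left in mutant replicate 1.

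The 3 cell labels at 2 weeks were compared over both genotypes. In T-labelled libraries 33 of 39 members were higher and 3 lower than in HSPCs, where 32.6% of all genes were higher and 29.3% lower. The median was 1.79, against 0.03 over all genes. TMM factors were 0.666 to 0.733 in T-labelled libraries and 1.22 to 1.29 in HSPCs, so fitted fold changes lie above ratios of CPM. The 9 neutrophil markers summed to 125975 to 147631 CPM in T-labelled libraries, and their part in these factors was not tested. With library totals 25 members were higher and 6 lower, and the medians were 0.95 for the members and -0.79 for all genes. Monocyte and macrophage markers summed to 2798 to 3328 CPM in T-labelled libraries against 368 to 709 CPM in HSPCs. Erythroid markers summed to 2604 to 8744 CPM against 149 to 841 CPM. Sums of HSPC, T cell, natural killer, plasma cell and plasmacytoid dendritic cell markers were lower without overlap, and those of B cell markers overlapped. The part of these cells in the differences was not tested.

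In the Oas family 5 of 5 were higher, with a median of 3.67, and with library totals 4 of 5 with a median of 2.83. Oas2 had 202, 253, 172 and 265 CPM in T-labelled libraries (mutant replicates 1 and 2, then WT), against 6.33, 16.4, 30.5 and 14.2 CPM in HSPCs, a log2 fold change of 4.67 ± 0.45 (edgeR adjusted p = 6.63e-05). Oas3 had 302, 297, 293 and 353 CPM against 17.0, 37.1, 42.9 and 28.8 CPM, a log2 fold change of 4.17 ± 0.25. Oasl2 had 219 to 411 CPM against 34.3 to 59.2 CPM and stood 3.67 ± 0.29 higher. None of these 3 overlapped. Oasl1 was the exception, with 25.6, 22.7, 22.8 and 41.3 CPM in T-labelled libraries against 25.9, 27.8, 35.2 and 25.4 CPM in HSPCs. Its libraries overlapped, and its log2 fold change was -0.04 with library totals (edgeR adjusted p = 0.916), so its call rests on the TMM factors. Ifit3 had 36.2, 51.0, 31.4 and 63.5 CPM against 0.0603, 1.44, 2.43 and 2.90 CPM and had the largest fitted difference, 5.98 ± 0.68. Rsad2, the radical-SAM enzyme viperin, had 161 to 240.0 CPM against 12.7 to 32.1 CPM, Mx1 43.3 to 74.0 CPM against 3.84 to 8.99 CPM, and Zbp1 53.7 to 117 CPM against 5.38 to 23.4 CPM. Ifitm3 had 492 to 599 CPM against 65.6 to 128 CPM. Their log2 fold changes were 4.02, 3.89, 3.58 and 3.27. All 4 factors were higher, Irf7 by 2.70 ± 0.15 (133 to 176 against 29.6 to 55.7 CPM), Stat2 by 1.87, Irf9 by 1.79 and Irf1 by 1.69.

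The GTPases stood apart from this pattern, with 1 of 6 higher, 2 lower and a median of 0.11, and with library totals 0 higher and 4 lower. Iigp1 had 1.94, 1.17, 1.07 and 4.65 CPM in T-labelled libraries against 12.0, 11.8, 51.7 and 20.4 CPM in HSPCs, a log2 fold change of -2.45 ± 0.59. Gbp3 had 16.3 to 23.4 CPM against 39.6 to 60.0 CPM, a fitted difference of -0.52 ± 0.17 whose call was lost without HSPC WT replicate 1 (adjusted p = 0.0939), T-labelled WT replicate 1 (0.0665) or T-labelled mutant replicate 1 (0.0769). Outside the GTPases only Ifi44 was lower, with 0.791 to 2.69 CPM against 10.1 to 21.2 CPM and a log2 fold change of -2.09 ± 0.38. Gbp2 was the GTPase called higher, by 1.07 in the fit with TMM factors. Its libraries overlapped, with 29.9, 37.4, 34.6 and 84.3 CPM in T-labelled libraries against 28.4, 29.5, 65.2 and 35.7 CPM in HSPCs. With library totals its log2 fold change was 0.23 and was not called (edgeR adjusted p = 0.583).

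B cells also held more of this RNA than HSPCs, with 19 members higher and 9 lower, where 28.3% of all genes were higher and 25.5% lower. The median was 0.60, against 0.06 over all genes. Rsad2 had 264, 150.2, 319 and 174 CPM in B cells, against 12.7, 30.5, 13.5 and 32.1 CPM in HSPCs, a log2 fold change of 3.48 ± 0.45 (edgeR adjusted p = 0.000464). Isg15 had 59.2, 44.0, 91.9 and 92.3 CPM against 10.8, 15.9, 23.7 and 16.5 CPM, a log2 fold change of 2.21 ± 0.16. Mx1 had 27.7 to 52.5 CPM against 3.84 to 8.99 CPM and Mx2 12.9 to 24.8 CPM against 2.01 to 4.26 CPM, and they were higher by 2.76 and 2.73. Ddx58 had 131 to 178 CPM against 44.5 to 54.6 CPM and was higher by 1.82 ± 0.10. None of these 5 overlapped. Zbp1, Oas2 and Ifit3 were higher by 1.92, 1.91 and 2.90. All 4 factors were higher, Stat2 by 1.66 ± 0.12 (148 to 199.5 against 52.1 to 73.2 CPM), Irf9 by 1.15, Irf1 by 1.12 and Irf7 by 0.79.

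Lower in B cells were 4 of the 6 GTPases, with 5 members of other roles. Gbp7 had 19.6, 15.6, 21.6 and 25.5 CPM in B cells against 77.1, 63.6, 102 and 73.9 CPM in HSPCs, a log2 fold change of -1.82 ± 0.17. Iigp1 had 1.58 to 16.5 CPM against 11.8 to 51.7 CPM and Ifi44 1.80 to 5.19 CPM against 10.1 to 21.2 CPM, both at -2.20 in the fit. Ifih1 had 15.0 to 20.5 CPM against 37.3 to 47.9 CPM, and Ifit2 14.6 to 19.6 CPM against 36.4 to 45.2 CPM. They fell by 1.11 and 1.09 on the log2 scale, so that Ddx58 and Ifih1, related RNA sensors, differed from HSPCs in opposite directions. Ifitm3 (-1.17), Gbp2 (-1.03) and Gbp3 (-0.46) completed the named list. Leaving out 1 library ended the call of Iigp1 for 4 of the 8 libraries, of Gbp2 for 6 and of Gbp3 for 5, with adjusted p up to 0.0628, 0.126 and 0.176. Other cells differed between the labels too. The 5 erythroid markers summed to 10709, 5610, 15077 and 8479 CPM in B cells (mutant replicates 1 and 2, then WT) against 319, 841, 149 and 751 CPM in HSPCs, and neutrophil markers to 3385 to 12247 CPM against 1287 to 3928 CPM. The part of these cells in the B cell differences was not tested.

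T-labelled libraries and B cells were then set against each other, with 26 members higher in T-labelled libraries and 1 lower, where 25.9% of all genes were higher and 27% lower. The median was 0.76, against -0.16 over all genes. With library totals 17 were higher and 8 lower, at a median of 0.05 against -0.86 over all genes. Monocyte and macrophage markers summed to 2798 to 3328 CPM in T-labelled libraries against 156 to 361 CPM in B cells. Neutrophil markers summed to 125975 to 147631 CPM against 3385 to 12247 CPM, and B cell markers to 345 to 543 CPM against 6520 to 8804 CPM. The part of these cells in the differences was not tested. Ifitm3 had 501, 534, 492 and 599 CPM in T-labelled libraries, against 35.5, 20.8, 42.8 and 71.9 CPM in B cells, a log2 fold change of 4.44 ± 0.25 (edgeR adjusted p = 2.95e-07). Oas3 (293 to 353 against 26.3 to 57.4 CPM) was higher by 3.63, Oasl2 (219 to 411 against 36.4 to 81.7 CPM) by 3.26, Ifit3 (31.4 to 63.5 against 6.16 to 13.7 CPM) by 3.08 and Oas2 (172 to 265 against 34.9 to 72.9 CPM) by 2.76. Rtp4, Oas1a and Ifit1 were higher by 2.63, 2.46 and 2.15. Mx2 alone was lower, with 7.15, 8.95, 7.29 and 8.17 CPM against 22.9, 24.8, 12.9 and 19.8 CPM and -0.61 ± 0.22 in the fit, a call lost without 6 of the 8 libraries (adjusted p = 0.0587 to 0.166). Irf7 was higher by 1.90 ± 0.14, Irf9 by 0.64 and Irf1 by 0.57, where the last 2 overlapped in CPM, and Stat2 did not pass (0.21 ± 0.12).

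**Figure D5:**
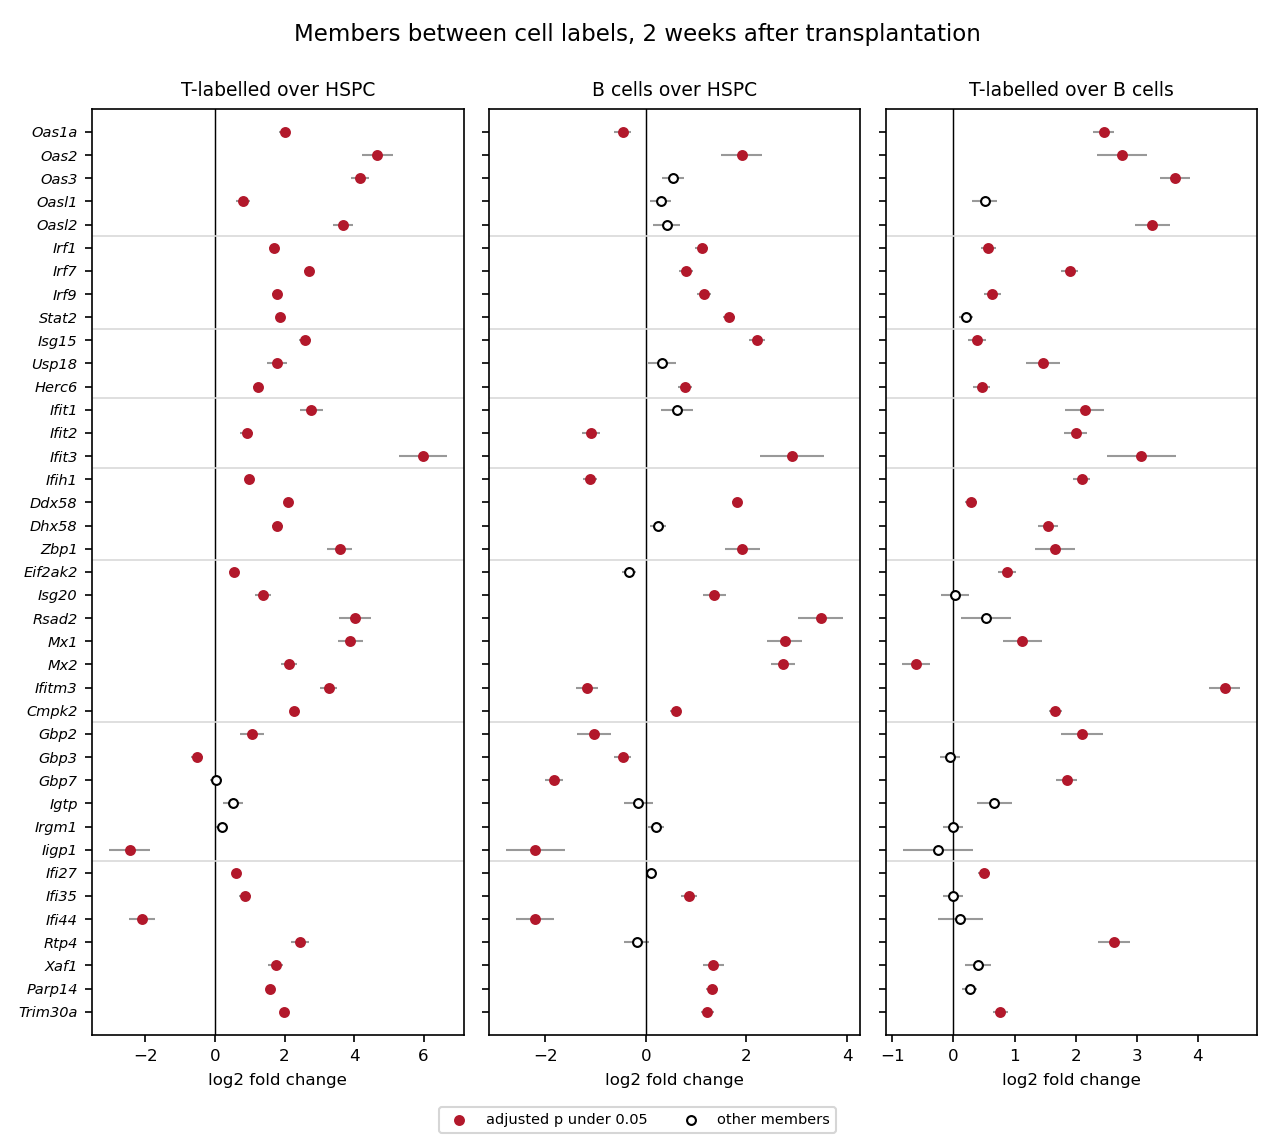
Log2 fold change with SE of each of the 39 genes between cell labels 2 weeks after transplantation, averaged over genotypes. Red points have an edgeR adjusted p under 0.05, and Oas2, Oas3, Oasl2 and Oas1a lie far to the right in both T-labelled panels, unlike Oasl1, while Iigp1 and Ifi44 lie left of 0 against HSPCs.

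Genes upstream of the members were taken from lists chosen by name, with earlier results of these data known. Of 15 interferon genes 1 passed the count filter, Ifng, which encodes interferon gamma, and the 15 summed to at most 1.54 CPM in any library. Ifng had 0.570 to 1.54 CPM in B cells, against 1 count in the 4 HSPC libraries of that time, and at most 0.523 CPM in T-labelled libraries. Among 11 receptor and Janus kinase genes all 11 were higher in T-labelled libraries than in HSPCs, where 32.6% of all genes were higher. With library totals 8 of the 11 were higher and 1 lower, and their summed level was 1761 to 1904 CPM against 1194 to 1237 CPM. Ifnlr1, the interferon lambda receptor, had 135 to 156 CPM there against 1.99 to 4.85 CPM in HSPCs and 4.76 to 10.4 CPM in B cells. Untreated WT replicate 1, the library rich in neutrophil markers, had 9.89 CPM of Ifnlr1 against 1.5 to 2.05 CPM in the other untreated libraries. In B cells 5 of the 11 were higher and 3 lower than in HSPCs, where 28.3% and 25.5% of all genes were, with Ifngr1, a chain of the interferon gamma receptor, at -1.40 on the log2 scale and Ifnar1, of the type I receptor, at 1.05. At 2 weeks 2 of 11 were higher and 2 lower than in untreated HSPCs, where 21.2% and 24.9% of all genes were. At 20 weeks 0 were higher and 1 lower, where 13.1% and 10.6% of all genes were. With library totals the counts were 2 higher and 6 lower at 2 weeks and 0 and 6 at 20 weeks.

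Among 15 genes of nucleic acid sensing, 10 were higher and 3 lower in T-labelled libraries than in HSPCs, and 7 and 4 in B cells. Of all genes 32.6% were higher and 29.3% lower in T-labelled libraries, and 28.3% and 25.5% in B cells. With library totals the counts were 7 higher and 6 lower in T-labelled libraries, and again 7 and 4 in B cells. Tlr9, the receptor for unmethylated DNA, had 82.7 to 119 CPM in B cells and 23.7 to 34.1 CPM in T-labelled libraries, against 3.43 to 5.99 CPM in HSPCs. Cgas, the cytosolic DNA sensor, had 3.35 to 7.55 CPM in B cells against 36.1 to 45.8 CPM in HSPCs. Tlr7, a receptor for single-stranded RNA, had 10.9 to 13 CPM in 2-week HSPCs against 49.5 to 68.6 CPM in untreated HSPCs, a log2 fold change of -2.28. Of 14 negative regulators tested, 9 were higher and 3 lower in T-labelled libraries than in HSPCs, where 32.6% and 29.3% of all genes were. With library totals 6 were higher and 4 lower. Socs3, an inhibitor of cytokine signalling, had 29.6 to 34.0 CPM in T-labelled libraries against 1.37 to 2.66 CPM in HSPCs. Socs1, which blocks Janus kinases at interferon receptors, had 6.42 to 8.4 CPM in B cells against 0.743 to 2.31 CPM in HSPCs.

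Downstream, 12 of 15 antigen presentation genes rose and 0 fell at 20 weeks against untreated HSPCs (median 0.72), where 13.1% of all genes were higher and 10.6% lower, while of the 39 members 6 rose and 13 fell. With library totals 6 of the 15 rose and 2 fell, at a median of 0.36. Their summed level was 7887 to 9489 CPM at 20 weeks against 6570 to 7244 CPM in untreated HSPCs. At 2 weeks 5 rose and 2 fell (2 and 2 with library totals), where 21.2% of all genes were higher and 24.9% lower. B2m, the light chain of class I molecules, stood at -0.78. A further list of 48 interferon-induced genes had 3 higher and 24 lower at 2 weeks than in untreated HSPCs (median -0.58), where 21.2% of all genes were higher and 24.9% lower. At 20 weeks 12 were higher and 5 lower (median 0.06), against 13.1% and 10.6% of all genes. With library totals the counts were 3 higher and 25 lower at 2 weeks (median -0.67), and 6 higher and 15 lower at 20 weeks (median -0.30). The median over all genes at 20 weeks also moved lower with library totals, as given above. The split at 20 weeks thus depends on the scaling and is not read as a direction of this list. Ly6a, an interferon-induced gene that encodes the Sca-1 antigen by which LSK cells are sorted, had 30.8 to 48.0 CPM at 2 weeks and 440.4 to 484 CPM at 20 weeks, against 165 to 206 CPM in untreated HSPCs. Since sorting uses this antigen, its level is not read here as a result. In mutant B cells, where 0.583% of all genes were called lower and 0.0572% higher, 3 of the 48 were lower and none higher. They were Ifitm2 (2.31 and 2.57 CPM in mutants against 7.52 and 6.62 CPM in WT), Ifi211 (0.836 and 0.552 against 2.30 and 3.66 CPM) and Lgals3bp (20.1 and 18.4 against 30.1 and 32.8 CPM), with edgeR adjusted p of 0.00203, 0.0162 and 0.0379. Of these, Ifitm2 had 55.2 to 84.9 CPM and Ifi211 14.8 to 22.5 CPM in T-labelled libraries. In the genotype comparisons of HSPCs and T-labelled libraries none of the 48 was called.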

How the data were processed

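The authors deposited raw counts per gene for each of 24 libraries, made with featureCounts 2.0.1 on paired, reverse-stranded exon reads and GENCODE M28 genes, per the file headers. STAR is named in the submitters' processing notes without a version, and builds mm10 and mm39 are both named there, while the coordinates are those of GRCm39. Multi-mapped reads were not counted, per the file headers, which lowers genes with near-identical copies. The labels' protocols give poly(A) TruSeq stranded libraries from 30000 sorted HSPCs, in the same words for the B cell and T cell samples.

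Gene names came from a GENCODE table that matched 52081 of 55414 gene IDs and 99.853% of counts. CPM are counts per 1e6 counts of the library. Tests used edgeR 4.0.16 (limma 3.58.1, R 4.3.3) quasi-likelihood fits with robust dispersion, TMM factors and filterByExpr (minimum count 10, total 15), adjusted by Benjamini-Hochberg over all genes at a threshold of 0.05. There were 3 fits: 16 HSPC libraries (19522 genes), 8 B cell and T-labelled libraries (17484 genes), and 12 libraries of the 2-week set (19018 genes). Log2 fold changes use TMM factors and CPM do not, so ratios of CPM can differ from them. The alternatives were DESeq2 1.42.0, other size factors, no count filter, a replicate block, the compared groups alone, no immunoglobulin genes, each library left out, and library totals without TMM, which was chosen after seeing the data. The fits were tested on simulated data.

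The members and lists were chosen with earlier results of these data known. The genes named are up to 8 called members in each direction by size of change, the 4 with the smallest p where none was called, Irf1, Irf7, Irf9 and Stat2 in each comparison, and up to 3 called genes of each other list. For genes named by a call, size of change or p, a lack of overlap between libraries follows in part from that choice. Coordinates of genes are in GRCm39 and those of promoters in GRCm38.p6. Library totals ran from 26.4 to 78.4 (in units of 1e6 counts).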

Additional observations from a re-analysis of the deposited data

How the results depend on the processing

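In genotype comparisons of HSPCs the count of called members was 0 in the fits as reported. It was 1 after doxorubicin, 6 at 2 weeks and 2 in the mean over conditions with no count filter, and 1 at 2 weeks with DESeq2. Leaving out 1 library gave 0 to 2 at 2 weeks. For doxorubicin against untreated HSPCs DESeq2 called 1 and no count filter 5, and leave-outs gave 0 to 1. The test of whether the 2-week response differed by genotype called 3 with no count filter and 0 to 1 with leave-outs. In B cells the 3 calls became 6 with DESeq2, 6 with no count filter, 0 in the compared groups alone and 1 to 3 with leave-outs. The cause of these changes was not tested. Shares of all genes called under these and the later settings are not given here, so the counts stand without that baseline. In each other comparison the count of both directions together stayed within 1.5 times the reported one under the settings that keep all libraries. The split by direction did not: with library totals the higher and lower members were 1 and 23 in place of 6 and 13 at 20 weeks, 10 and 13 in place of 17 and 4 between the times, 25 and 6 in place of 33 and 3 for T-labelled libraries against HSPCs, and 17 and 8 in place of 26 and 1 against B cells. Shares of all genes called with library totals are not given, so these splits stand beside the medians over all genes only. Without the count filter the adjustment runs over more genes. Leaving out untreated WT replicate 1 turned Ifit2 by genotype in untreated HSPCs to 0.0188 (leave-outs -0.54 to 0.0188), and leaving out T-labelled WT replicate 2 turned Irf1 to 0.0287 (-0.40 to 0.0287) and Gbp7 to 0.152 (-0.65 to 0.152). None of these was called. The 12 gene values that lost a call under settings that keep all libraries did so with library totals, the compared groups alone or the block. Samples of 1 replicate number did not deviate together across groups (correlations of deviations -0.101 to 0.067). Libraries of the same animals need not deviate together across cell labels, so this cannot settle whether the numbers pair the samples. With the replicate block 5 members were called in B cells by genotype, and 22 at 2 weeks, 18 at 20 weeks and 21 between the times, with 28, 36 and 27 between labels, and 0 in every other comparison. With 2 libraries per group, differences of the size of the spread between replicates are not detectable.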
